A study of Mus musculus with 21 samples.

Results

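A set of 40 mouse interferon-stimulated genes was followed across cultured macrophages given IL-33, IL-4 or no cytokine. The genes were chosen by name, as the rows of the deposited count table that carry the symbols of a given list. All 40 were found among 47069 genes, and all 40 passed the filter on low counts that left 14473 genes for testing. By role they comprised 4 IFIT genes, 5 of the OAS family, 13 other antiviral effectors, 3 genes of the ISG15 system, 3 RNA sensors, 3 transcription factors, 3 genes of a PARP and DTX3L group, Trim30a, and 5 interferon-inducible GTPases.

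The macrophages came from mouse bone marrow kept for 5 days in M-CSF, after which cytokine was present for 36 h. RNA was sequenced in pairs of 150-base reads, with 3 libraries in each of 7 groups. Wild-type cells (C57BL/6) were left untreated or received IL-33 or IL-4. Cultures from ST2-/- mice, labelled as lacking the IL-33 receptor chain encoded by Il1rl1, received no cytokine or IL-33. Cells labelled Cx3cr1CRExGata3fl/fl, in which Cre recombinase under control of Cx3cr1 acts on a floxed Gata3 gene, also received no cytokine or IL-33 and are called Gata3-floxed here. All groups shared the C57BL/6 strain and the M-CSF culture, the labels give no age, and no group received an interferon. The Cre acts only in cells that have expressed Cx3cr1. Neither mutant group received IL-4, and no floxed group without Cre is among these libraries.

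Interferon-stimulated genes are the output of the type I interferon pathway. Interferon binds the receptor chains IFNAR1 and IFNAR2, the kinases JAK1 and TYK2 are activated, and phosphorylated STAT2 acts with IRF9 in a complex that binds the interferon-stimulated response element, a pair of GAAA half-sites in promoters. Macrophages keep a low tonic level of this output without infection, and IRF7, itself a target, amplifies it. Some members, among them the guanylate-binding proteins, also respond to gamma interferon.

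Depth ranged from 32.6 to 48.7 M (mega) counts per library, and the 40 genes took between 0.144% and 0.443% of the counts of a library. All 10 macrophage core markers exceeded 1 CPM (counts scaled to a common library size by edgeR) in each of the 7 groups. Gene counts did not check either deletion: Il1rl1 stood at 15.6 ± 1.45 CPM (SD, n = 3) in unstimulated wild-type cells and 17.4 ± 2.95 in unstimulated ST2-/- cells, and Gata3 at 0.147 and 0.246 CPM in unstimulated wild-type and Gata3-floxed cells. The genotypes are therefore given as labelled. The X-linked transcript Xist stood at 277 to 376 CPM in the 6 Gata3-floxed libraries and at most 0.0462 in the other 15, while Y-linked Ddx3y stood at 61.0 to 86.3 CPM in those 15 and at most 0.0286 in the 6. The floxed genotype and this sex-linked difference cannot be told apart in any comparison with wild-type cells. The labels do not say whether libraries of a group came from separate animals, so p-values measure only the spread between libraries, which may be technical.

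The promoters of 4 members are shown because the results below turn on how these genes differ from each other. Ifit3 and Ifit3b fell with IL-33, while Ifit1 and Isg15 did not pass the test under IL-33, and all 4 fell with IL-4. Each window is RefSeq sequence of the GRCm38.p6 assembly, written 5′ to 3′ on the strand of the gene, and ends 41 bases before the annotated start. Capitals mark matches to the response element letters on either strand, here GAAA, then 2 bases of any kind, then GAAA. The windows are chr19:34583329-34583488 (plus strand) for Ifit3, chr19:34607757-34607916 (plus) for Ifit3b, chr19:34640689-34640848 (plus) for Ifit1 and chr4:156200859-156201018 (minus) for Isg15.
Ifit3: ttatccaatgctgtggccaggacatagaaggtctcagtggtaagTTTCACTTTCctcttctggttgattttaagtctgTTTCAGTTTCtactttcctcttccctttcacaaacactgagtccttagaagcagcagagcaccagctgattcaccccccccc
Ifit3b: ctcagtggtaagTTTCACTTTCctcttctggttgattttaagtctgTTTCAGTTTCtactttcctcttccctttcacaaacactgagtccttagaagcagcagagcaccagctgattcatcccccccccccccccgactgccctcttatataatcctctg
Ifit1: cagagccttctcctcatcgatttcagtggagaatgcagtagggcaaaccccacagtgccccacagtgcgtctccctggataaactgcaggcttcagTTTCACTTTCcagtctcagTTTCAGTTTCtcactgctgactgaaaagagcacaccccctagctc
Isg15: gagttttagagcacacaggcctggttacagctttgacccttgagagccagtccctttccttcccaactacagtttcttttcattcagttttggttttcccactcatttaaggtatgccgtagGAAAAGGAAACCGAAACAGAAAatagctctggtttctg
Matches began 156 and 122 bases before the start of Ifit3, 188 and 154 before Ifit3b, and 104 and 85 before Ifit1. Isg15 held 3 overlapping matches, which began 78, 72 and 66 bases before its start. The Ifit3 and Ifit3b promoters were alike: with an offset of 32 bases, 201 of 268 aligned bases (75.0%) were identical, and both matches lay in the shared stretch. Identity was counted without gaps, so an inserted or missing base would lower it for all bases that follow. RefSeq windows from 250 bases before to 50 after the start were at hand for 31 of the 40 genes. Of these, 19 (61.3%) held this response element on either strand, against 3.99% of 27025 genes with a window. A motif of TTC and GAA with 3 bases between was found in 6 of 31 (19.4%, against 9.55% of all), the STAT6 spacing of 4 bases in 6 of 31 (against 8.01%), and a form of the NF-kB site, GGGA and TTCC with 2 bases between, in Gbp2 and Ifit2 alone (against 1.63%). The windows of Irf7, Irf9, Ifit2, Oasl1 and Oasl2 were among the 12 without the response element. A match describes letters in these windows and not binding.

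In unstimulated wild-type cells the most abundant member per length was Bst2 (chr8:71534255-71537456, GRCm38), which encodes tetherin, a membrane protein that holds budding virus particles on the cell surface. It stood at 384 ± 47.3 CPM per kilobase of exon (SD, n = 3). Rtp4 followed at 65.3 ± 10.3, Oas1a at 54.8 ± 7.24, Isg15 at 53.2 ± 11.8 and Irf7 at 48.2 ± 13.4, all CPM per kilobase. Among these 4, neighbours in the order did not differ beyond their spread. The lowest was Mx2, a polymorphic pseudogene in the annotation used, at 1.97 ± 0.536 CPM per kilobase. Length here is that of all annotated exons merged, which for Irf7 (3776 bases) covers the whole gene, so the order depends on the annotation.

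**Figure D1:**
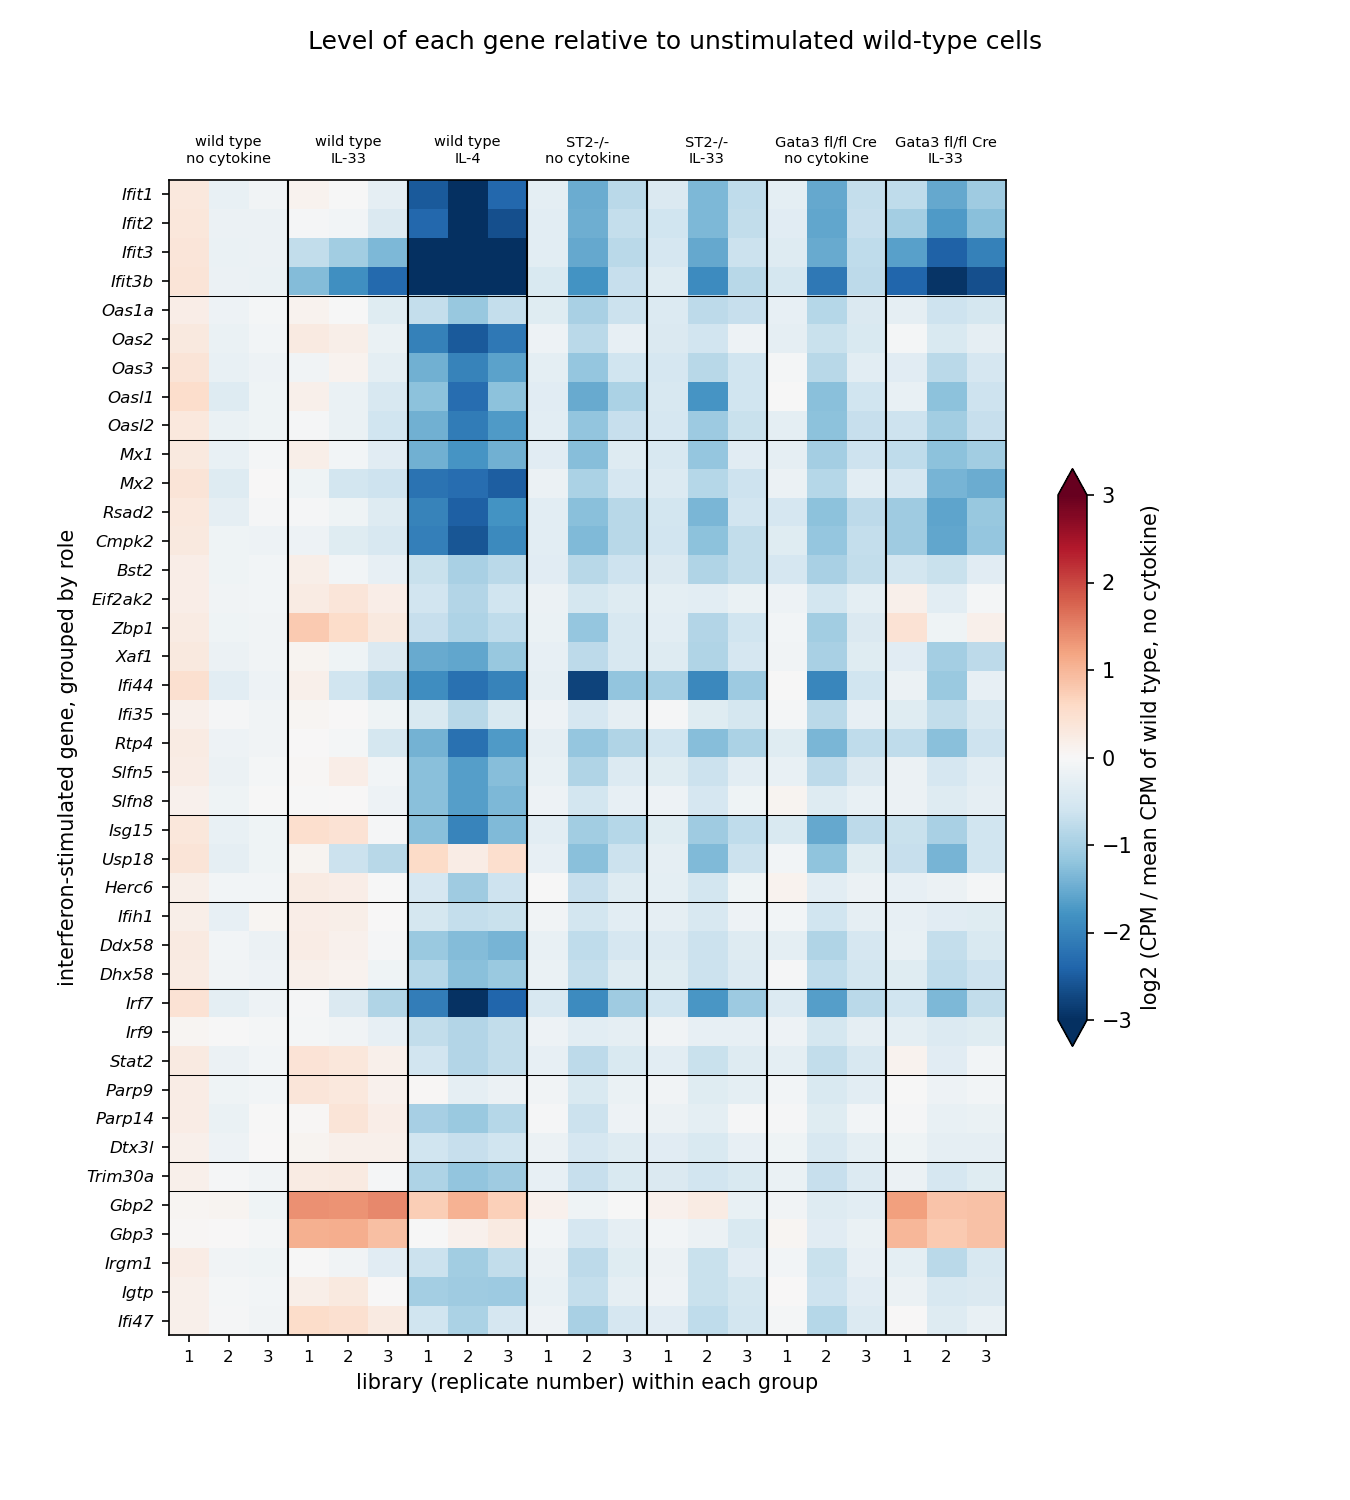
Level of each of the 40 genes (rows, grouped by role) in each of the 21 libraries (columns, 3 per group), as log2 of CPM over the mean CPM of unstimulated wild-type cells, with colours ending at 3 in either direction. The 3 IL-4 libraries are low in nearly all rows apart from Gbp2, Gbp3, Usp18 and Parp9, and the libraries numbered 2 of the unstimulated mutant groups are lower than their neighbours in every row.

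IL-4 lowered nearly the whole set in wild-type cells. Of 40 genes, 36 were lower and Gbp2 alone was higher at an adjusted p under 0.05 (edgeR quasi-likelihood test, Benjamini-Hochberg adjustment over all 14473 genes), the threshold at which genes are termed called here. Among all genes tested, 47.6% were called in this comparison, 22.5% as lower and 25.1% as higher. Shares of all genes called are from this main edgeR fit throughout, also where member counts of other fits stand beside them. The median change of the 40 was -1.18 on the log2 scale, with a range from -4.40 to 0.84, against a median of 0.00 over all genes. The 3 IL-4 libraries lay below all 3 unstimulated libraries for 36 of the 40 genes, against 26.9% of all genes, and above them for 1, against 29.3%. Together the 40 genes took 0.376 ± 0.0580% of the counts without cytokine and 0.163 ± 0.0176% with IL-4 (SD, n = 3 each). In bulk RNA, fewer cells of a type and less RNA per cell cannot be told apart. The summed macrophage core markers ran from 20892 to 22970 CPM with IL-4 and from 32868 to 35739 without, with 6 of 10 lower and 4 higher. Lyz2 was the largest part of these sums, at a mean of 9890 CPM with IL-4 and 21331 without. Ctss stood at 6761 and 4842 CPM. The median log2 change over the 10 macrophage core markers was -0.81. The plasmacytoid dendritic cell list, a cell type known for interferon output, had 6 of 10 genes over 1 CPM and no marker at 0. It summed to 149 to 158 CPM with IL-4 and 239 to 248.7 without, with 3 of the 9 tested lower. Most of these sums was Tcf4 (mean 64.6 CPM with IL-4, 130 without) and Il3ra (75.9 and 99.6). The median log2 change over the 9 tested was 0.15. The conventional dendritic cell list summed to 862 to 1269 CPM with IL-4 and 50.3 to 98.0 without, with 3 of 10 higher. Most of these sums was Itgax alone, at a mean of 988 CPM with IL-4 and 63.6 without. The median log2 change of the list was 0.31, and Flt3 had means of 0.920 CPM with IL-4 and 1.40 without. The part of these markers in the result was not tested.

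The IFIT family, whose proteins bind foreign RNA and block its translation, fell most, with 4 of 4 lower. Ifit3b (ENSMUSG00000062488, chr19:34607970-34613401), one of the mouse copies of Ifit3, stood at 16.5, 11.1 and 10.9 CPM without cytokine and at 0.537, 0.290 and 0.954 CPM with IL-4. The IL-4 libraries were far below the others, on only 17, 12 and 43 reads. The change was -4.40 ± 0.50 (log2 ± standard error), 21.1-fold lower (adjusted p = 1.42e-07). Ifit3 (ENSMUSG00000074896, chr19:34583531-34588731), which stabilizes the IFIT1 complex in human cells, was 12.4-fold lower, from 83.3 ± 19.4 to 6.75 ± 2.23 CPM (log2 change -3.63 ± 0.36, adjusted p = 1.54e-08). Of all 100-base runs of the Ifit3 transcripts, 31.7% also occur in Ifit3b, and 27.4% of those of Ifit3b occur in Ifit3. Reads from these runs may have been left uncounted or assigned to either gene, so the values of both are uncertain. Ifit1 (ENSMUSG00000034459, chr19:34640871-34650009), the cap-binding member, was measured at 68.1, 47.2 and 51.4 CPM without cytokine and 9.58, 6.31 and 10.8 with IL-4. All IL-4 libraries were far below all unstimulated ones, and the level was 6.25-fold lower (-2.64 ± 0.32, adjusted p = 3.36e-07). Ifit2 changed by -2.72 ± 0.31 on the log2 scale (adjusted p = 1.26e-07).

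The OAS family makes or resembles the enzymes that make 2′-5′ oligoadenylate, the activator of RNase L, and 5 of 5 fell with log2 changes from -2.24 to -0.86. Oas2 (chr5:120730333-120749853) gave 81.1, 57.6 and 62.8 CPM without cytokine and 16.3, 11.5 and 14.9 with IL-4, a 4.73-fold lower level (-2.24 ± 0.18, adjusted p = 6.86e-10). Oas1a (chr5:120896256-120907521) had the smallest fall of the family, from 119, 92.7 and 98.4 CPM to 62.4, 46.3 and 62.4 CPM (1.81-fold lower, adjusted p = 0.000171). Neither gene's libraries overlapped between the groups. Oas1a shares 40.9% of its 100-base runs with Oas1g, and its value is uncertain for that reason.

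All 13 of the other antiviral effectors fell. Mx2 (chr16:97535308-97560900), of the dynamin-like Mx group, had the largest log2 change, from 9.13, 5.27 and 6.96 CPM to 1.49, 1.43 and 1.24 CPM (-2.36 ± 0.28, adjusted p = 2.33e-07). Rsad2, which encodes the radical-SAM enzyme viperin, and its neighbour Cmpk2, a nucleotide kinase, changed by -2.07 and -2.17. Ifi35 (chr11:101448407-101458698) had the smallest fall, from 26.6, 23.4 and 22.2 CPM to 17.5, 13.5 and 17.3 CPM (-0.58 ± 0.16, adjusted p = 0.00415). The groups did not overlap for either Mx2 or Ifi35. Of the exon bases of Ifi35, 16.8% lie opposite Gm11626 on the other strand, and the strandedness of counting is not given in the sources used here.

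The ISG15 system split. Isg15 (ENSMUSG00000035692, chr4:156199424-156200818), the ubiquitin-like modifier, stood at 50.4, 33.8 and 36.4 CPM without cytokine and 16.5, 9.94 and 15.8 with IL-4, all 3 of the latter below the former. Its level was 2.86-fold lower (-1.52 ± 0.25, adjusted p = 2.75e-05). Herc6 (chr6:57581000-57664632), the mouse ligase that attaches ISG15, went from 26.7, 22.6 and 22.4 CPM to 16.7, 11.4 and 15.5 CPM (-0.72 ± 0.15, adjusted p = 0.000497). Usp18 (chr6:121245906-121270917), which removes ISG15 and also blocks the receptor chain IFNAR2, did not fall: it gave 38.4, 24.1 and 26.7 CPM without cytokine and 43.7, 34.1 and 41.1 with IL-4, overlapping groups (0.42 ± 0.29, adjusted p = 0.261).

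The 3 sensors of viral RNA fell. Ddx58 (chr4:40203773-40239828), which encodes RIG-I, went from 118, 92.9 and 87.0 CPM to 45.4, 40.1 and 37.6 CPM, 2.42-fold lower (-1.27 ± 0.15, adjusted p = 3.63e-07). Ifih1 (chr2:62595798-62646255), which encodes MDA5, went from 67.3, 50.5 and 62.4 CPM to 41.4, 36.3 and 37.6 CPM, 1.56-fold lower (-0.65 ± 0.12, adjusted p = 0.000147). Neither overlapped between groups, and Dhx58, which encodes their regulator LGP2, changed by -1.08.

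The 3 transcription factors fell by unequal amounts. Irf7 (ENSMUSG00000025498, chr7:141262706-141266481) stood at 240.0, 146 and 159.6 CPM without cytokine and 42.2, 22.8 and 34.2 with IL-4, 5.52-fold lower (-2.46 ± 0.36, adjusted p = 5.75e-06). Stat2 (ENSMUSG00000040033, chr10:128270559-128292849) went from 182, 135 and 143 CPM to 102, 81.9 and 91.5 CPM, 1.67-fold lower (-0.74 ± 0.14, adjusted p = 0.000167). Irf9 (ENSMUSG00000002325, chr14:55603571-55610030) went from 107, 101.1 and 98.7 CPM to 60.9, 55.3 and 61.7 CPM (-0.79 ± 0.08, adjusted p = 1.68e-08). The 2 groups were apart for each factor, and Irf9 had by far the closest libraries.

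Of the group around the ADP-ribosyl transferases, 2 of 3 fell. Parp14 (chr16:35832874-35871544), a transferase known for acting with STAT6, went from 327, 246 and 280.3 CPM to 142, 130.4 and 157 CPM (-0.99 ± 0.13, adjusted p = 1.33e-06). Dtx3l (chr16:35926511-35939151), a ubiquitin ligase that pairs with PARP9, went from 124, 99.99 and 111 CPM to 73.6, 69.3 and 73.4 CPM (-0.63 ± 0.09, adjusted p = 2.93e-06). Its partner Parp9 did not pass the test (-0.14 ± 0.11, adjusted p = 0.315). The 2 genes overlap on opposite strands over 9.40% of the exon bases of Parp9 and 8.0% of those of Dtx3l. Trim30a (chr7:104409025-104465193), an inhibitor of NF-kB signalling, went from 197, 173 and 166 CPM to 93.7, 77.9 and 85.7 CPM (-1.06 ± 0.12, adjusted p = 1.89e-07).

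The interferon-inducible GTPases, which act on pathogen vacuoles, held the exception. Igtp (chr11:58199556-58207591) fell from 32.6, 27.97 and 27.7 CPM to 14.4, 14.1 and 13.8 CPM (-1.06 ± 0.15, adjusted p = 3.97e-06). Ifi47 (chr11:49076587-49096974) fell from 68.2, 60.1 and 57.1 CPM to 41.03, 31.8 and 43.2 CPM (-0.68 ± 0.18, adjusted p = 0.0038), and Irgm1 changed by -0.81. Gbp2 (ENSMUSG00000028270, chr3:142620602-142638008), a guanylate-binding protein, rose from 33.3, 34.0 and 29.4 CPM to 53.8, 66.4 and 52.8 CPM, 1.79-fold higher (0.84 ± 0.12, adjusted p = 2.58e-06). Gbp3 did not pass the test (0.13 ± 0.11, adjusted p = 0.365).

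**Figure D2:**
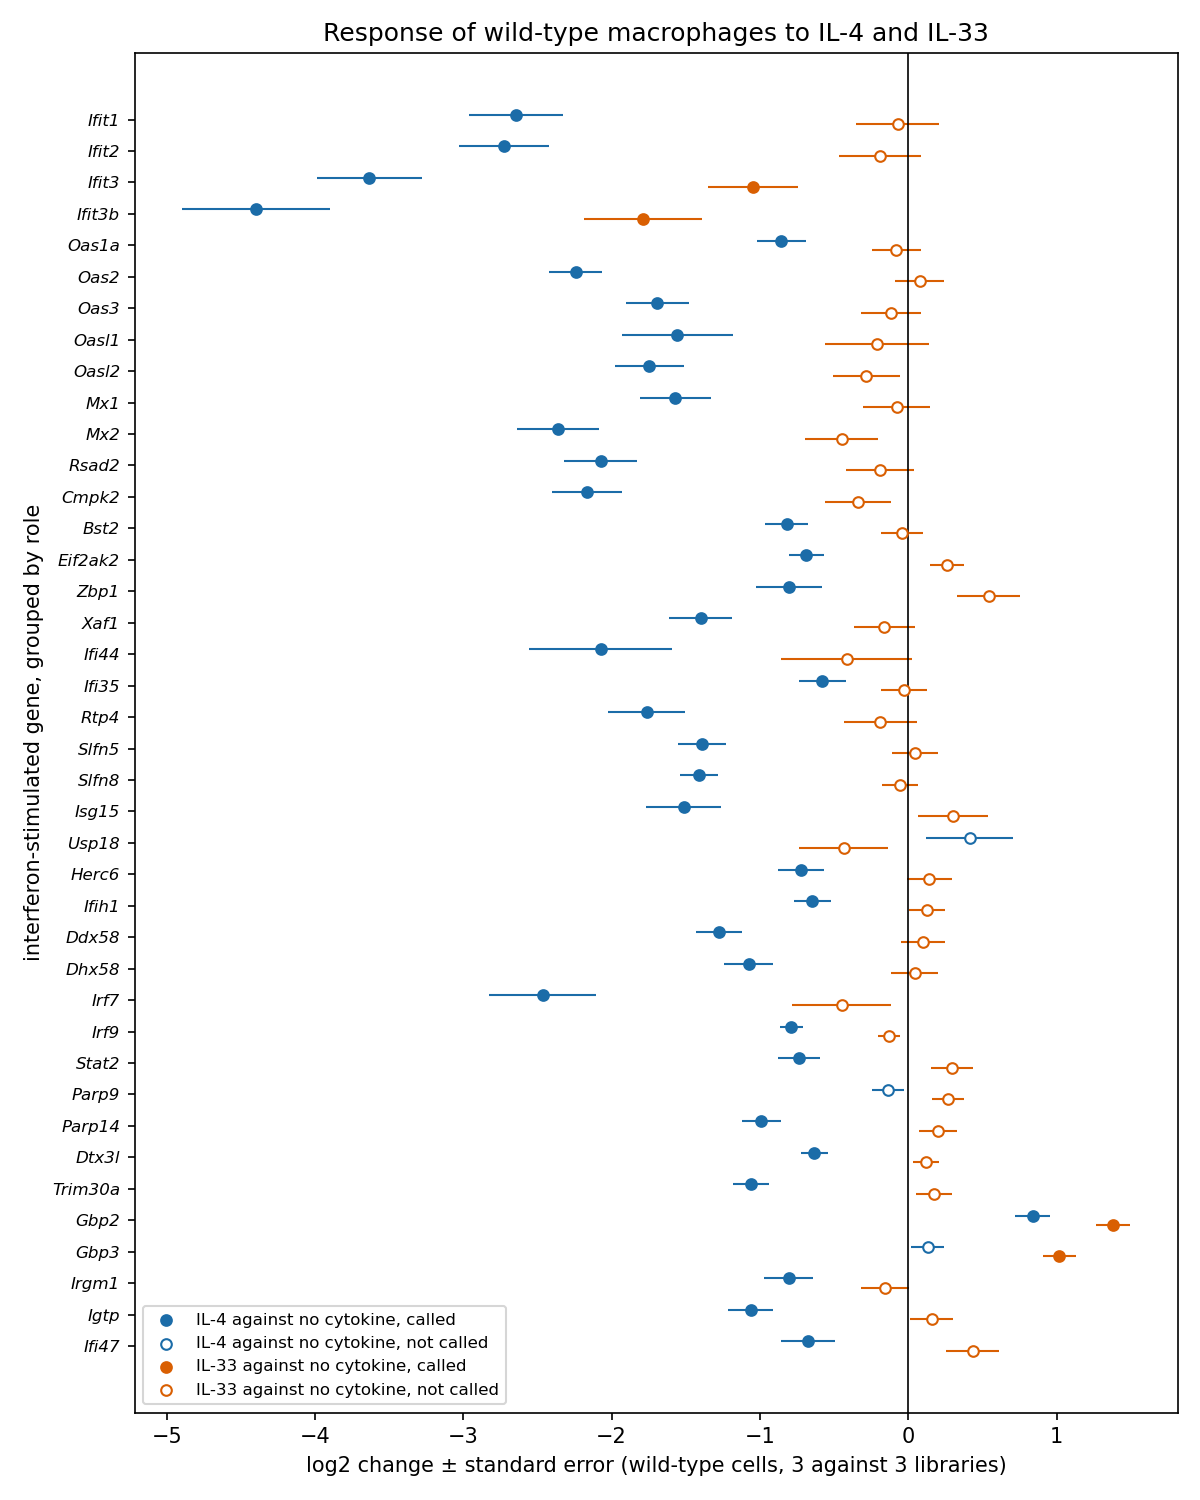
Change of each gene (rows, grouped by role) in wild-type cells on a log2 axis, with standard errors, for IL-4 (blue) and IL-33 (orange) against no cytokine; filled points were called. With IL-4, 36 of 40 genes lie called below 0, while with IL-33 the filled points are Ifit3, Ifit3b, Gbp2 and Gbp3.

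With IL-33 the called changes in wild-type cells went in both directions, and their number depended on the fit. The called genes were 4 of 40: Ifit3b and Ifit3 were lower, and Gbp2 and Gbp3 were higher. Among all genes tested 35.4% were called, 16.9% lower and 18.5% higher. The count of members was 21 without the filter on low counts, 9 in a fit of only the groups compared and 7 with limma-voom. The 35.4% of all genes belongs to the main edgeR fit and not to these alternatives. With upper-quartile scaling the split of all called genes moved from 2676 higher and 2446 lower to 2251 and 3010, while the 4 members kept their calls and direction. The median change of the 40 was -0.05 on the log2 scale, and 18 changes were positive and 22 negative. Without the wild-type unstimulated library 1 the median was 0.09 and 7 genes were called. Neutrophil markers were called higher for 8 of 11 tested, with sums of 380 to 525 CPM against 122 to 135. Csf3r (mean 216 against 93.2 CPM) and Mmp8 (189 against 11.7) made up most of these sums. Ngp had means of 6.03 against 4.26 CPM, and Retnlg 0.206 against 0.311. Classical monocyte markers were called higher for 8 of 9, with sums of 786 to 1266 against 281 to 335 CPM. Conventional dendritic cell markers were called higher for 7 of 10, with sums of 137 to 220.2 against 50.3 to 98.0 CPM. Itgax made up most of those sums, at a mean of 149 against 63.6 CPM. Ly6g and Ly6c1 were at 0 without cytokine. The part of these markers in the changes was not tested.

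Ifit3b stood at 5.10, 3.54 and 2.48 CPM with IL-33, all below the unstimulated libraries, 3.46-fold lower (-1.79 ± 0.40, adjusted p = 0.00114). Ifit3 stood at 49.0, 39.7 and 32.3 CPM against 106, 71.4 and 72.7, 2.06-fold lower (-1.04 ± 0.30, adjusted p = 0.00962). This call was lost without the unstimulated wild-type library 1, where the change was -0.85 (adjusted p = 0.0585). Ifit1, with 58.8, 54.3 and 45.4 CPM, overlapped the unstimulated libraries (-0.07 ± 0.28, adjusted p = 0.88), and Ifit2 changed by -0.19 ± 0.28 (adjusted p = 0.644).

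Gbp2 was measured at 83.1, 81.5 and 87.3 CPM with IL-33, all above the unstimulated and the IL-4 libraries, 2.6-fold higher than without cytokine (1.38 ± 0.12, adjusted p = 3.14e-09). Gbp3 (ENSMUSG00000028268, chr3:142560026-142573209), its neighbour in a gene cluster, rose from 17.9, 17.6 and 16.8 CPM to 36.6, 37.1 and 32.4 CPM, 2.03-fold higher (1.02 ± 0.11, adjusted p = 1.76e-07). With IL-4 it stood at 17.2, 19.1 and 20.95 CPM, which overlapped the unstimulated values.

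The factors and Isg15 did not pass the test with IL-33. Irf7 gave 173, 130.5 and 95.7 CPM (-0.45 ± 0.34, adjusted p = 0.332) and Irf9 gave 99.0, 95.6 and 86.1 CPM (-0.13 ± 0.08, adjusted p = 0.204). Stat2 gave 203, 191 and 168 CPM (0.29 ± 0.14, adjusted p = 0.114) and Isg15 gave 56.3, 53.1 and 38.7 CPM (0.30 ± 0.24, adjusted p = 0.362). Each of these overlapped the unstimulated group. Zbp1, a sensor of Z-form nucleic acid, gave 70.2, 59.7 and 50.2 CPM against 48.9, 37.2 and 37.8, with no overlap but an adjusted p of 0.0543.

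**Figure D3:**
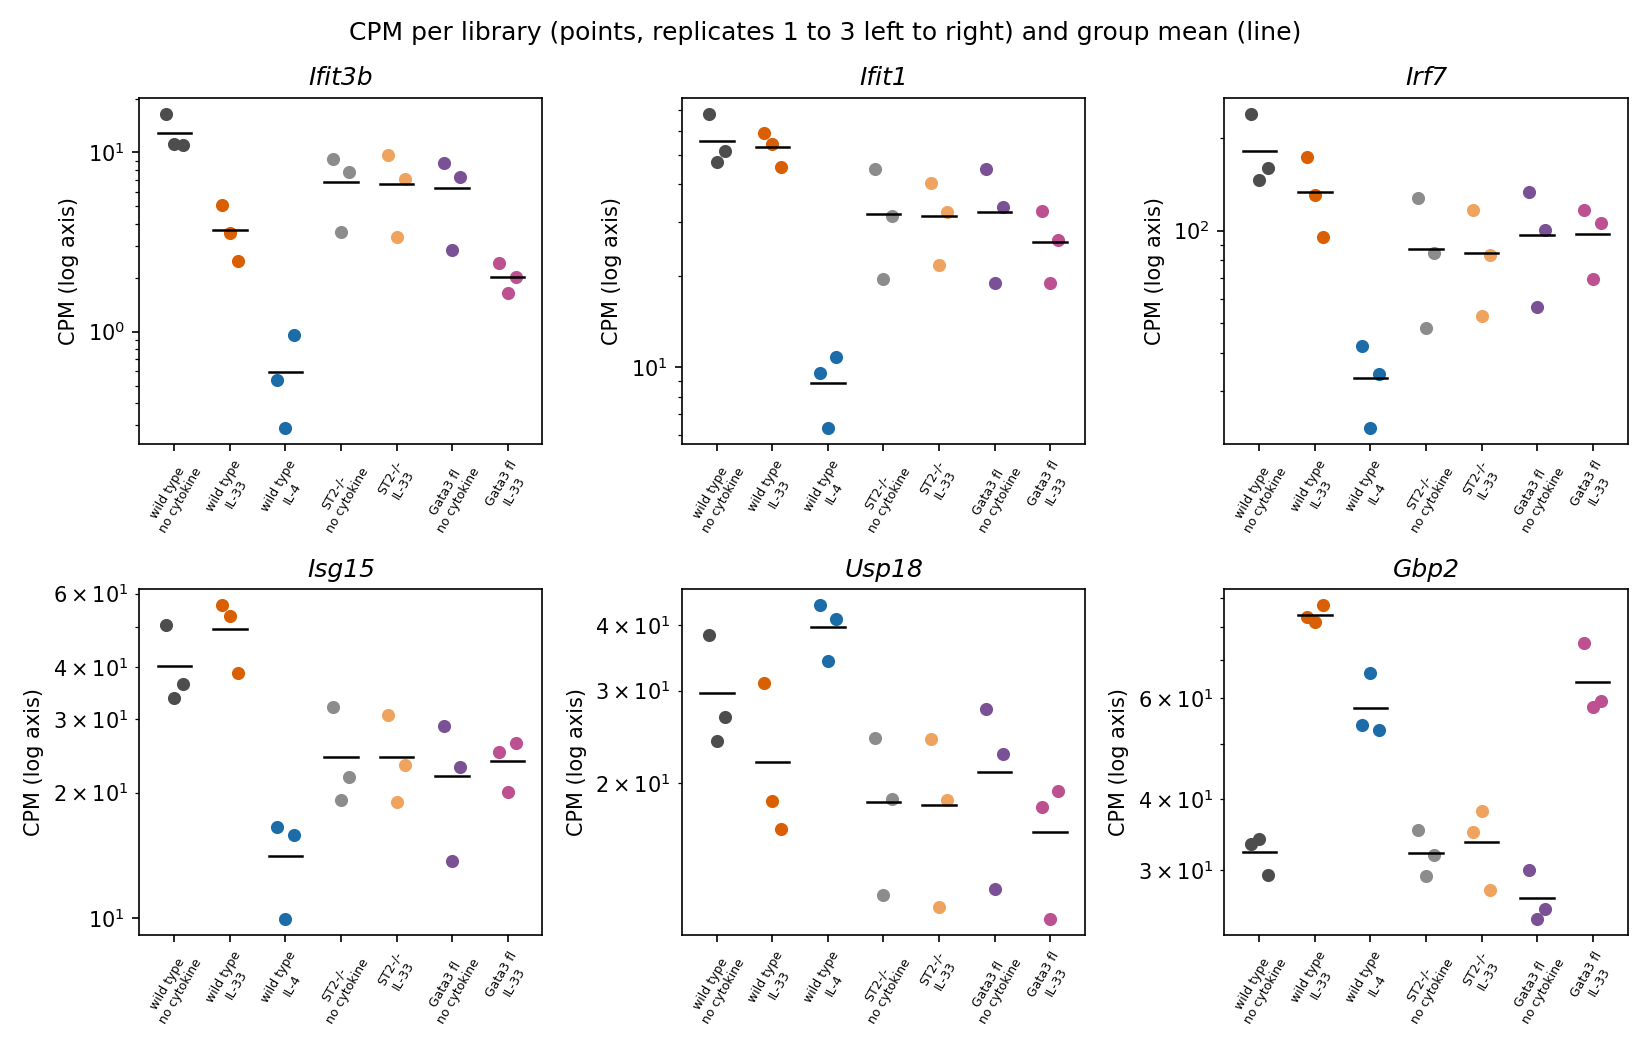
CPM on a log axis in each library (points, libraries 1 to 3 from left to right) and the group mean (lines) for Ifit3b, Ifit1, Irf7, Isg15, Usp18 and Gbp2 in the 7 groups. The IL-4 group has the lowest mean for Ifit3b, Ifit1, Irf7 and Isg15 and the highest for Usp18, while the Gbp2 means are highest in wild-type and Gata3-floxed cells with IL-33.

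Compared directly, cells with IL-33 exceeded cells with IL-4 for 39 of 40 genes, with Usp18 the 1 called lower; 39.9% of all genes were called, 19.2% as higher. The IL-33 libraries lay above all IL-4 libraries for the same number of genes, 39, against 23.4% of all genes. In the same comparison neutrophil markers were called higher for 8 of 11 tested and lower for 0. Classical monocyte markers were called higher for 7 of 9 and lower for 2. Macrophage core markers were called higher for 7 of 10 and lower for 3, and conventional dendritic cell markers higher for 3 of 10 and lower for 3. The part of these markers in the result was not tested. The median difference of the 40 genes was 1.29 on the log2 scale, from -0.85 to 2.61. Ifit3b differed by 2.61 ± 0.52 (adjusted p = 0.000308), Ifit1 by 2.57 ± 0.32 (6.26e-07), Irf7 by 2.01 ± 0.36 (8.26e-05), Isg15 by 1.81 ± 0.25 (3.43e-06), Stat2 by 1.03 (3.43e-06) and Irf9 by 0.66 (3.18e-07, each an adjusted p). For Usp18 the IL-33 libraries gave 31.0, 18.5 and 16.3 CPM, below the 43.7, 34.1 and 41.1 CPM of IL-4 (-0.85 ± 0.30, adjusted p = 0.0258). That call was lost without IL-33 library 2 (adjusted p = 0.106) or 3 (0.128) and without IL-4 library 1 (0.079) or 3 (0.0632), and also with DESeq2.

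Ratios of counts within a library set members against each other without reference to depth. The ratio of Ifit3 to Ifit1 was 1.49 ± 0.0696 in unstimulated wild-type cells, 0.759 ± 0.0647 with IL-33 and 0.750 ± 0.101 with IL-4 (SD, n = 3). Neither cytokine group overlapped the unstimulated one, and an exact two-sided permutation test gave p = 0.1 for each, the smallest value that 3 against 3 libraries allow. In ST2-/- cells the ratio was 1.47 ± 0.0157 without cytokine and 1.45 ± 0.163 with IL-33, and in Gata3-floxed cells it was 1.44 ± 0.0628 without and 0.801 ± 0.0257 with IL-33. It was thus low in the 3 groups of cytokine-treated cells other than ST2-/-. The ratio of Ifit2 to Ifit1 stayed between group means of 2.25 and 2.64 in all 7 groups. That of Usp18 to Isg15 in wild-type cells was 0.736 ± 0.0244 without cytokine, 0.440 ± 0.102 under IL-33 and 2.89 ± 0.470 under IL-4, again with p = 0.1 in the exact two-sided permutation test for each. The ratios were chosen with earlier results of these data known.

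**Figure D4:**
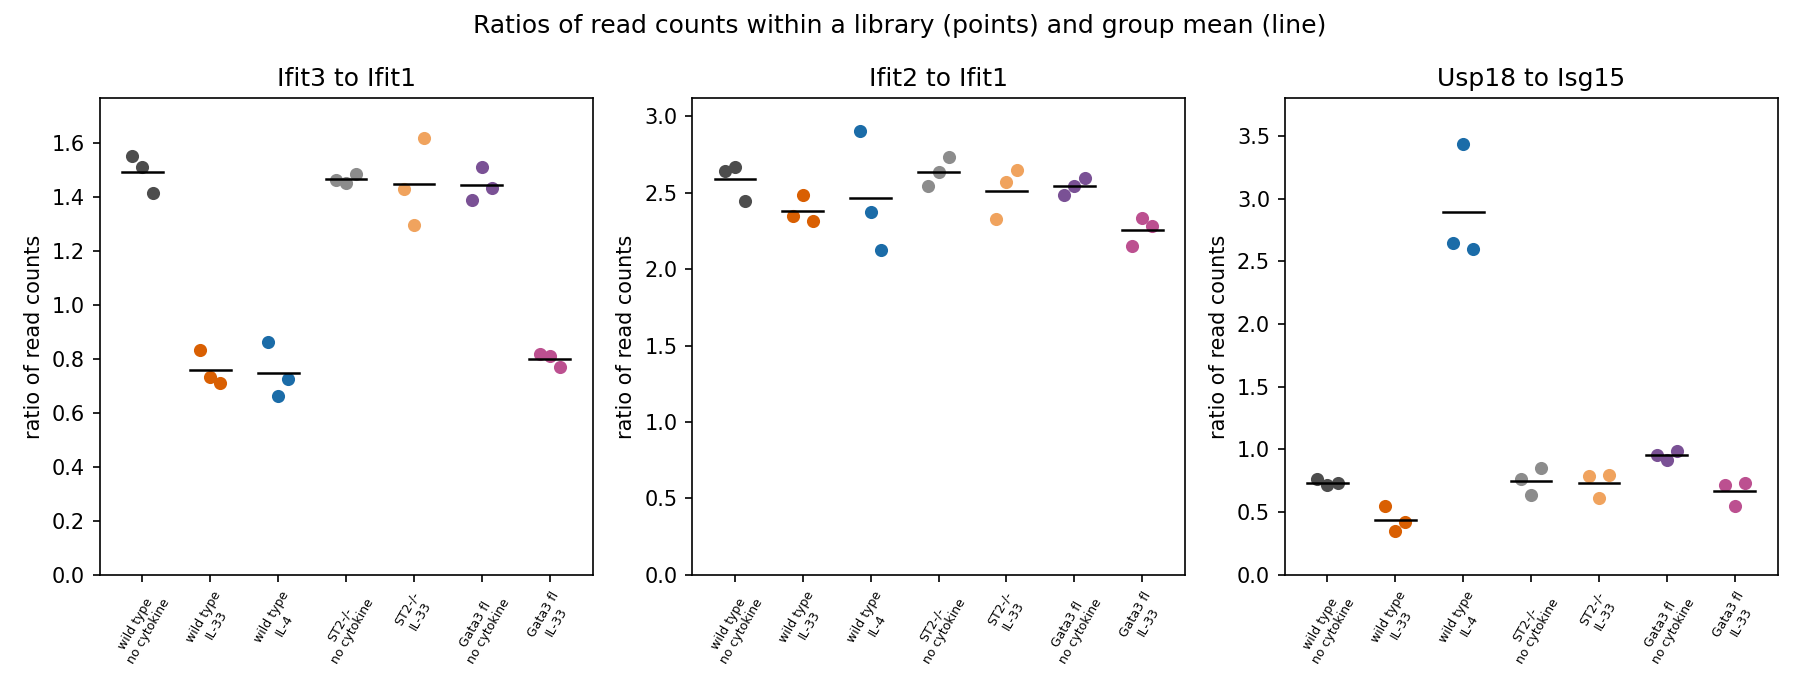
Ratios of read counts within each library (points) and group means (lines) for Ifit3 to Ifit1, Ifit2 to Ifit1 and Usp18 to Isg15 in the 7 groups, on axes that start at 0. The first ratio is near 0.8 or below in wild-type cells with either cytokine and in Gata3-floxed cells with IL-33, the second stays between 2.25 and 2.64 on average, and the third is highest with IL-4.

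ST2-/- cells showed no called change with IL-33. None of the 40 genes was called by edgeR, limma-voom or DESeq2, and 0 of 40 had an unadjusted p under 0.05 (edgeR); among all genes 0% were called by edgeR and 507 had an unadjusted p under 0.05. The libraries of the 2 groups overlapped for all 40 genes, while 3.48% of all genes were free of overlap in each direction. The changes ran from -0.21 to 0.09 on the log2 scale with a median of -0.00. Ifit3b stood at 9.19, 3.61 and 7.81 CPM without cytokine and 9.65, 3.37 and 7.10 with IL-33 (-0.03 ± 0.39), and Gbp2 at 35.3, 29.4 and 31.9 CPM without and 35.1, 38.1 and 27.7 with IL-33 (0.07 ± 0.12). The libraries of the 2 groups overlapped for both genes. Ifit1 changed by -0.02 ± 0.29, Irf7 by -0.04 ± 0.34, Isg15 by -0.00 ± 0.24, Stat2 by 0.03 and Irf9 by 0.05, all with an adjusted p of 1.

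The difference between the IL-33 responses of ST2-/- and wild-type cells was called for 3 of 40 genes, against 22.7% of all genes, and for 10 of 40 without the filter on low counts. It was -1.31 ± 0.16 for Gbp2 (adjusted p = 3.04e-06), -0.98 ± 0.16 for Gbp3 (8.46e-05) and 1.76 ± 0.55 for Ifit3b (0.0248), each the ST2-/- response minus the wild-type response on the log2 scale. The value for Ifit3 was 1.02 ± 0.43 and did not pass (adjusted p = 0.0937). The Gbp2 difference was called in every alternative run. The Ifit3b difference was lost in 5 of the fits that leave out 1 library, namely wild-type unstimulated 1 (adjusted p = 0.0707), wild-type IL-33 2 (0.0517) or 3 (0.0671), ST2-/- unstimulated 2 (0.0649) and ST2-/- IL-33 1 (0.0898), and also with DESeq2. For Ifit1 the difference was 0.05 ± 0.40, for Irf7 0.41 ± 0.48, for Isg15 -0.30 ± 0.34, for Stat2 -0.26 ± 0.20 and for Irf9 0.18 ± 0.11, with adjusted p from 0.25 to 0.95.

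Gata3-floxed cells with IL-33 had 6 of 40 genes called, 4 higher and 2 lower, against 33.4% of all genes. With upper-quartile scaling 3 members were higher and 4 lower, and the split of all called genes moved from 2471 higher and 2364 lower to 2001 and 2985. Without the filter on low counts 21 members were called. Gbp2 rose from 30.1, 24.7 and 25.7 CPM to 75.0, 57.8 and 59.4 CPM, 2.39-fold (1.26 ± 0.12, adjusted p = 1.8e-08), and Gbp3 from 18.1, 13.7 and 15.2 CPM to 34.8, 30.1 and 32.1 CPM (1.05 ± 0.11, adjusted p = 1.51e-07). Both were clear of overlap. Ifit3b fell from 8.75, 2.86 and 7.27 CPM to 2.42, 1.63 and 2.03 CPM (-1.63 ± 0.43, adjusted p = 0.00514), with all treated libraries below all untreated ones, though limma-voom did not call it. Ifit3 changed by -1.16 ± 0.32 (adjusted p = 0.00646, or 0.0543 without the unstimulated library 1).

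The other 2 calls did not hold in several of the fits that leave out 1 library. Stat2 gave 124, 90.5 and 109 CPM without and 163, 120.1 and 143 CPM with IL-33, overlapping groups (0.40 ± 0.14, adjusted p = 0.0336). Zbp1 gave 38.9, 19.9 and 30.5 CPM without and 55.3, 37.7 and 45.8 CPM with IL-33, also overlapping (0.64 ± 0.22, adjusted p = 0.0274). Both calls were lost without unstimulated library 2 (adjusted p = 0.165 for Stat2 and 0.158 for Zbp1) or 3 (0.0665 and 0.0569), and without IL-33 library 1 (0.177 and 0.139) or 3 (0.0699 and 0.0557), and that of Stat2 also with DESeq2 and with upper-quartile scaling. Ifit1 changed by -0.33 ± 0.29, Irf7 by 0.00 ± 0.34, Isg15 by 0.12 ± 0.25 and Irf9 by -0.05, none of them called.

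No gene of the 40 was called for a difference between the IL-33 responses of Gata3-floxed and wild-type cells. The count was 0 by edgeR with the filter on low counts, by limma-voom and by DESeq2, and 2 by edgeR without that filter, with 0 of 40 at an unadjusted p under 0.05 (edgeR with the filter); 1.22% of all genes were called, 0.539% with a higher and 0.677% with a lower response. The difference was -0.12 for Gbp2, 0.03 for Gbp3 and 0.16 ± 0.59 for Ifit3b on the log2 scale.

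Without cytokine the estimated changes of the 40 genes from wild-type to mutant cells were negative in both genotypes, but most did not pass the test. These comparisons share the unstimulated wild-type libraries, and the values are given side by side. In ST2-/- cells all 40 changes were negative, with a median of -0.51 and a range from -1.13 to -0.00, but only Bst2 and Dtx3l were called, against 1.35% of all genes. Of the 40, 37 had an unadjusted p under 0.05 (edgeR), against 2137 of all 14473 genes tested. For 30 of the 40 the ST2-/- libraries lay below all wild-type libraries, against 10.3% of all genes. For none of the 40 did they lie above, against 10.4% of all genes. Bst2 gave 274, 193 and 226 CPM in ST2-/- cells and 396, 318 and 327 in wild-type cells (-0.59 ± 0.14, adjusted p = 0.0412). Dtx3l gave 99.0, 78.1 and 85.1 CPM against 124, 99.99 and 111 (-0.36 ± 0.09, adjusted p = 0.0442). For both genes every ST2-/- library was below every wild-type one. Both calls were lost without wild-type library 1 (adjusted p = 0.246 for Bst2 and 0.276 for Dtx3l) or 3 (0.091 and 0.146) and without ST2-/- library 2 (0.288 and 0.319) or 3 (0.113 and 0.128), and without ST2-/- library 1 the count of called genes was 10. That of Dtx3l was also lost in a fit of only the groups compared. Libraries of the same number deviated together in this comparison, and with the number as a block 34 of 40 genes were called, all lower. The count was 5 with limma-voom, 6 with DESeq2 and 38 without the filter on low counts. The 1.35% of all genes belongs to the main edgeR fit, and not to the block or these alternatives. The plasmacytoid dendritic cell sum was 224 to 241 CPM in ST2-/- cells and 239 to 248.7 in wild-type cells. The conventional dendritic cell sum was 124 to 165 against 50.3 to 98.0 CPM, with 1 of 10 markers called higher (Itgax, 2.0-fold, adjusted p = 0.0452), and its part in the result was not tested.

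Among the named genes in ST2-/- cells, Irf7 gave 128, 48.0 and 84.7 CPM (-1.07 ± 0.34, adjusted p = 0.132) and Ifit1 gave 45.0, 19.4 and 31.5 CPM (-0.80 ± 0.29, 0.178). Isg15 gave 32.0, 19.2 and 21.8 CPM (-0.72 ± 0.24, 0.149) and Stat2 gave 127, 88.1 and 111 CPM (-0.49 ± 0.14, 0.0877). All libraries of these 4 genes were below the wild-type libraries. Ifit3b changed by -0.91 ± 0.38 (0.259) and Irf9 by -0.25 ± 0.08 (0.109), and Gbp2 stood level with wild type (-0.00).

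In Gata3-floxed cells all 40 changes were again negative, with a median of -0.47 and a range from -1.02 to -0.12. Called lower were 10 of 40, against 9.85% of all genes called, 4.25% lower and 5.6% higher: Isg15 (-0.87), Rsad2 (-0.83), Rtp4 (-0.79), Bst2 (-0.73), Cmpk2 (-0.71), Ddx58 (-0.56), Stat2 (-0.51), Trim30a (-0.43), Irf9 (-0.30) and Dtx3l (-0.30). The libraries lay below all wild-type ones for 20 genes, against 14.9% of all genes, and above for none, against 16.1%. Isg15 gave 28.9, 13.7 and 23.1 CPM (adjusted p = 0.0249) and Irf9 gave 92.5, 71.6 and 84.6 CPM (0.0138), both below every wild-type library. Irf7 gave 134, 56.6 and 100.6 CPM (-0.90 ± 0.34, 0.0966), Ifit1 changed by -0.77 ± 0.28 (0.0913) and Ifit3b by -1.02 ± 0.38 (0.0944). The count of calls was 1 without wild-type library 1 or Gata3-floxed library 2, 3 without Gata3-floxed library 3, 6 without wild-type library 3 and 23 without Gata3-floxed library 1. It was 16 with limma-voom, 19 in a fit of only the groups compared and 35 without the filter on low counts. Neutrophil markers were called higher for 7 of 11 tested, at 172 to 194 against 122 to 135 CPM in sum with Ly6g at 0 in both groups. Conventional dendritic cell markers were called higher for 2 of 10, at 105 to 172 against 50.3 to 98.0 CPM in sum. Plasmacytoid dendritic cell markers were called higher for 2 of 9 tested and lower for 0, at 258 to 275 against 239 to 248.7 CPM in sum. The median log2 change over these 9 was -0.01. The part of these lists in the result was not tested.

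With IL-33 present, ST2-/- cells had 24 of 40 genes called lower than wild-type cells and none higher, against 37% of all genes called and 19.1% called lower. With upper-quartile scaling the split of all called genes moved from 2593 higher and 2759 lower to 3098 and 2336, and 21 of the 40 were called, all lower. Without the filter on low counts 38 were called. Gbp2 differed most (-1.32, adjusted p = 6.62e-09), then Gbp3 (-1.25, 9.91e-09), Zbp1 (-1.14 ± 0.22, 0.000249) and Isg15 (-1.02 ± 0.24, 0.00184). Stat2 differed by -0.76 ± 0.14 (0.000193) and Ifit1 by -0.75 ± 0.29 (0.0447, a call lost with DESeq2 and with upper-quartile scaling), while Irf7 (-0.66 ± 0.34, 0.138), Irf9 (-0.07, 0.508) and Ifit3b (0.85 ± 0.40, 0.106) were not called. The latter stood at 9.65, 3.37 and 7.10 CPM in ST2-/- cells and 5.10, 3.54 and 2.48 in wild-type cells, overlapping values. By role, all 3 RNA sensors, all 3 PARP and DTX3L genes and 4 of 5 GTPases were called lower, but 1 of 4 IFIT genes. Neutrophil markers were called lower for 8 of 11 tested and higher for 1 in the same comparison. Monocyte markers were called lower for 9 of 9, and the part of either list was not tested.

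Gata3-floxed cells with IL-33 had 17 of 40 genes called lower than wild-type cells with IL-33, against 11.3% of all genes called, 5.85% lower and 5.5% higher, with a median of -0.46 over the 40. The largest changes were those of Ifit2 (-1.12), Rsad2 (-1.07), Isg15 (-1.05 ± 0.24, adjusted p = 0.00582), Ifit1 (-1.03 ± 0.29, 0.0237) and Mx1 (-0.94). Isg15 gave 25.0, 20.1 and 26.3 CPM and Ifit1 gave 32.6, 18.9 and 26.1 CPM, all below the wild-type libraries with IL-33. Gbp2 differed by -0.39 ± 0.11 (0.027), while Stat2 (-0.40 ± 0.14, 0.0712), Irf9 (-0.22 ± 0.08, 0.065), Irf7 (-0.45 ± 0.34, 0.455) and Ifit3b (-0.87 ± 0.45, 0.238) were not called. The count of calls was 3 without Gata3-floxed library 2, 6 without wild-type library 2, 7 without Gata3-floxed library 3, 8 without wild-type library 1 and 21 without Gata3-floxed library 1, and 38 without the filter on low counts. Neutrophil markers were called higher for 5 of 11 tested and lower for 1 in this comparison, and their part in the result was not tested.

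Within a group, the 40 genes differed between libraries in a shared order. The mean log2 CPM over the 40 was highest in library 1 in all 7 groups and lowest in library 2 in 6 of 7. In unstimulated ST2-/- cells it was 5.76, 5.00 and 5.46 in libraries 1 to 3, in unstimulated Gata3-floxed cells 5.80, 5.04 and 5.52, and in unstimulated wild-type cells 6.24, 5.82 and 5.89. In each of the 2 unstimulated mutant groups all 40 genes were highest in library 1 and all 40 lowest in library 2. Of all genes tested, 29.5% in ST2-/- and 33.1% in Gata3-floxed cells were highest in library 1, and 33.1% and 36.4% lowest in library 2. The ratio of the highest to the lowest library had a median over the 40 of 1.28 to 1.61 by group, against 1.14 to 1.19 over all genes tested. The widest was that of Ifi44, with 11.5, 2.02 and 6.12 CPM in unstimulated ST2-/- cells, a ratio of 5.70. The labels do not say what a library number stands for.

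**Figure D5:**
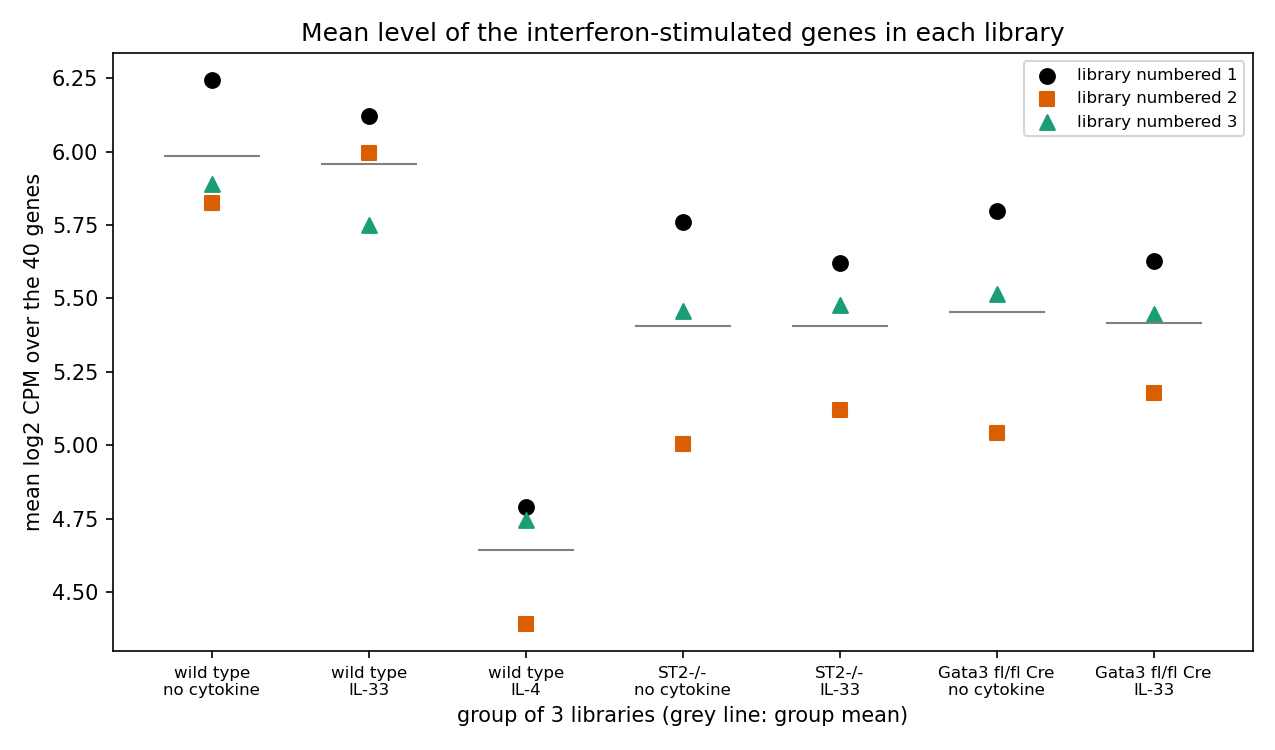
Mean log2 CPM over the 40 genes in each library (points, by library number) and group means (grey lines) for the 7 groups. Library 1 is highest in every group, the IL-4 group is lowest at 4.64 on average, and library 2 of the unstimulated mutant groups lies at 5.00 and 5.04.

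The counts of called genes in other lists of the pathway stand beside 22.5% of all genes called lower and 25.1% called higher with IL-4, and 16.9% lower and 18.5% higher with IL-33. Of 19 interferon genes none passed the filter: 11 alpha genes, Ifnab, Ifne, Ifnl2 and Ifnl3 had no read in any of the 21 libraries, Ifnb1 had 5 reads in all with at most 1 in a library, and Ifng had 5, all in 1 library. Of 59 further interferon-stimulated genes tested, 52 were lower and 1 higher with IL-4 (median -0.86), led by Ly6a (-3.99), the chemokine gene Cxcl10 (-3.73) and Ifit1bl1 (-3.32). With IL-33, 10 were higher and 1 lower, led by Trim30c (1.30) and the chemokine gene Ccl5 (0.95). Of 24 genes typical of gamma interferon, 13 were lower and 3 higher with IL-4, led by the GTPase gene Iigp1 (-3.78), and 11 were higher and 1 lower with IL-33. The latter were led by genes with few reads, Gbp2b (0.0264 to 0.464 CPM), Nos2 (0.0691 to 0.792) and Gbp11 (0.111 to 0.772). Among genes with more reads, mean CPM went from 16.4 to 68.4 for Gbp7 and from 5.70 to 14.7 for Gbp5 with IL-33. For Irf8 it went from 363 to 263.

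Receptors, kinases and feedback inhibitors changed in both directions, with counts to be read against the same shares of all genes. With IL-4, 4 of 9 receptor and kinase genes were lower and 3 higher, among them Jak2 (0.89) and Ifnar2 (-0.58). With IL-33, 4 were higher and 1 lower, led by Ifnar1 (0.87) and Jak2 (0.73). Socs1, an inhibitor of JAK kinases, rose 42.2-fold with IL-4, from 1.41 to 59.6 CPM, and 7.07-fold with IL-33, to 9.99 CPM. Socs3 rose 25.6-fold with IL-33, from 3.64 to 93.0 CPM, and was at 1.65 CPM with IL-4 (adjusted p = 0.0532). Of 10 feedback genes, 3 were higher and 4 lower with IL-4, and 4 higher and 2 lower with IL-33. Of 21 genes of nucleic acid sensing, 5 were higher and 8 lower with IL-4, led by Tlr9 (-1.62), and 7 were higher and 3 lower with IL-33, led by Tlr4 (0.84). None of these lists had a called gene with IL-33 in ST2-/- cells (edgeR).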

How the data were processed

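The deposited table holds raw read counts per gene for 47069 genes and 21 libraries, 3 in each of 7 groups, and the authors did not normalize it, as the whole numbers with unequal totals show. Per the submitters' processing notes, HISAT2 2.0.5, HTSeq 0.6.1 and DESeq2 1.22.2 were used with GRCm38. The gene annotation and the strandedness of counting are not given in the sources used here. Of the gene identifiers, 46574 matched GENCODE M21, which supplied positions and exon lengths, and all 40 members matched.

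Counts were tested with edgeR 4.0.16 (R 4.3.3): filterByExpr by group left 14473 genes, with TMM scaling and 1 quasi-likelihood fit with a mean per group. The common dispersion was 0.00740, with 14 residual degrees of freedom. The 11 comparisons were adjusted by Benjamini-Hochberg over all tested genes and called at an adjusted p under 0.05. Alternatives were RLE and upper-quartile scaling, no filter, a stricter filter (1 CPM in 3 libraries), limma-voom (limma 3.58.1), DESeq2 1.42.0, only the groups compared, the replicate number as a block, and each library left out. The test was tried on simulated counts with 200 changed genes.

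Members, lists and ratios were chosen with earlier results of these data known. Named genes are those with the largest and smallest called change of each role with IL-4, Ifit3b, Ifit1, Irf7, Isg15, Stat2 and Irf9 throughout, members called where 5 or fewer were, and up to 3 leading genes of other lists. Of the genes this rule reaches, 1 is not reported here. Other members, and a few further genes of the other lists, are named after their values were seen. Replicate numbers come from the sample titles. Over 10016 genes, same-numbered libraries deviated together (every correlation over 0.1) for IL-33 against none in ST2-/- cells (0.218 to 0.457) and for ST2-/- against wild-type cells without cytokine (0.106 to 0.433), and in no other comparison. Promoter windows are RefSeq sequences, searched on both strands with overlapping matches counted.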

Additional observations from a re-analysis of the deposited data

Results flagged for a closer look

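Of the members, 3 differed between genotypes in their IL-33 response by a test of the difference itself (edgeR interaction term, Benjamini-Hochberg adjustment over all 14473 genes). Of all genes, 22.7% were called in this comparison. For Ifit3b the ST2-/- response minus the wild-type response was 1.76 on the log2 scale (adjusted p = 0.0248): all 3 wild-type libraries with IL-33 lay below all those without, and the ST2-/- libraries overlapped. This call was lost in 5 of the fits that leave out 1 library and with DESeq2. For Gbp2 the difference was -1.31 (adjusted p = 3.04e-06), and for Gbp3 it was -0.98 (adjusted p = 8.46e-05). For both genes all 3 wild-type libraries with IL-33 lay above all those without, and the ST2-/- libraries overlapped.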

How the results depend on the processing

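Counts of called members (of 40) with IL-4 in wild-type cells (37) and for IL-33 against IL-4 (40) stayed within 1.5 times under every alternative run, with 37 to 37 and 39 to 40 when 1 library was left out, and IL-33 in ST2-/- cells gave 0 throughout; no member changed direction while called. Elsewhere counts depended on the fit, and the cause was not tested. The shares of all genes called in the report are those of the main edgeR fit and do not apply to the alternative counts below. Without a filter on low counts they were 21 for IL-33 in wild-type cells (4 in the report), 21 for IL-33 in Gata3-floxed cells (6), 10 and 2 for the differences of the ST2-/- and Gata3-floxed responses from wild type (3 and 0), 38 and 35 for ST2-/- and Gata3-floxed against wild-type cells without cytokine (2 and 10), and 38 and 38 with IL-33 (24 and 17). With the replicate block they were, in the same order, 13, 14, 7 for ST2-/-, 34 and 32, and 36 for Gata3-floxed with IL-33; the block changed no other count by over 1.5 times. With only the groups compared they were 9 for IL-33 in wild-type cells and 19 for Gata3-floxed against wild-type cells without cytokine. With limma-voom these were 7 and 16, and ST2-/- against wild-type cells without cytokine gave 5, or 6 with DESeq2. Leaving out 1 library gave 4 to 7 calls for IL-33 in wild-type cells, 0 to 10 for ST2-/- and 1 to 23 for Gata3-floxed against wild-type cells without cytokine, and 3 to 21 for Gata3-floxed against wild-type cells with IL-33.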
